A study of Mus musculus with 10 samples.

Results

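Blood vessel genes of the mouse retina were followed across 8 lists of called peaks: 4 for open chromatin in sorted retinal cells, 2 for the histone mark H3K27ac and 2 for H3K27me3 in whole tissue. The 9 genes, of 21631 protein-coding genes on chromosomes 1 to 19 and X, were Kdr, Flt1, Cldn5, Cdh5, Egfl7, Pecam1, Tek and Tie1, which mark endothelial cells, and Pdgfrb, which marks pericytes. They were selected on measured values, among them a lower H3K27ac coverage of vessel genes in the mutant library seen before in these same lists, so their differences between genotypes are given as descriptions and carry no test. Each gene was read over its annotated body plus 20 kb on either side, and the measure was the number of bases in that window covered by peaks.

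The study compared C57BL/6 retina with and without Casz1, which encodes a zinc finger transcription factor of retinal progenitors. For ATAC-seq, which reads open chromatin from where the transposase Tn5 inserts, explants of postnatal day 2 retina carried plasmids for GFP alone (control, labelled wild type) or for GFP together with Cre (Casz1 conditional knockout, cKO). After 2 days in culture, 50000 viable GFP-positive cells were sorted for each of 2 control and 2 cKO libraries, in experiments run on separate days. For chromatin immunoprecipitation, retina was taken at postnatal day 0, with 1 control (wild type) and 1 cKO library for each mark, and the cKO tissue was peripheral retina picked by its fluorescence. The labels do not give the Cre driver of that tissue, the deleted part of Casz1 or the number of animals pooled, and the control is not described as peripheral, so retinal position and genotype cannot be told apart in the histone data.

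Retinal vessels of the mouse grow after birth, from the optic nerve head towards the periphery, and endothelial tubes are covered by pericytes as they mature. VEGF acts through the receptor kinase encoded by Kdr, while the receptor encoded by Flt1 binds VEGF tightly and limits its action. Tek encodes the receptor for angiopoietins and Tie1 its partner; Cdh5 and Cldn5 build adherens and tight junctions, Pecam1 encodes an adhesion molecule of the endothelial surface, and Egfl7 a protein that endothelial cells secrete into the matrix. Pdgfrb encodes the receptor by which pericytes are recruited. H3K27ac is found at active promoters and enhancers, and H3K27me3 is laid down by Polycomb repressive complexes. Endothelial cells and pericytes are a small share of retinal cells, and in bulk samples such as these, fewer cells of a type and less signal per cell cannot be told apart.

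The ATAC lists differed in length within each genotype. Control 1 held 40435 peaks over 11.8 Mb and control 2 held 110741 peaks over 61.0 Mb, while cKO 1 held 93767 over 52.7 Mb and cKO 2 held 60824 over 20004287 bp. Peaks of H3K27ac covered 55.4 Mb (control) and 51.6 Mb (cKO), those of H3K27me3 87.4 and 84.5 Mb. Read depth is unknown for all of them. Markers of the labelled tissue ranked high: by covered bases per window length, 12 retinal neural genes had a median rank between percentiles 89.9 and 97.2 of all genes in the ATAC lists, and at 98.6 in both H3K27ac lists of unsorted tissue, and all 12 had an ATAC peak within 1 kb of the start in every list. The 9 vessel genes had ATAC medians between percentiles 40.7 and 47.3. Of the vessel genes not among the 9, a list of 18 endothelial genes had ATAC medians of 55.1 to 73.2 and a list of 11 endothelial transcription factors 42.5 to 73.1, with the higher values of each in control 2 and cKO 1.

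The stretches upstream of the transcription start are shown first because the vessel genes divided at this point into open and closed starts, and their CpG content divided with them. Of the 9 genes, 6 had a start with its strand in the RefSeq promoter table (GRCm38.p6, the assembly called mm10), and these gave 8 starts, of which Egfl7 has 3, numbered 5′ to 3′. The 250 bases before the start are printed 5′ to 3′ on the gene's strand, with every CpG in capitals, for 4 starts that had an ATAC peak within 1 kb in all 4 lists and then for 2 that did not. They lie at chr5:75978456-75978705 on the minus strand (Kdr), chr5:147726012-147726261 on the minus strand (Flt1), chr16:18776597-18776846 on the plus strand (Cldn5), chr2:26586386-26586635 on the plus strand (start 3 of Egfl7), chr2:26580833-26581082 on the plus strand (start 1 of Egfl7) and chr4:94739039-94739288 on the plus strand (Tek).
Kdr: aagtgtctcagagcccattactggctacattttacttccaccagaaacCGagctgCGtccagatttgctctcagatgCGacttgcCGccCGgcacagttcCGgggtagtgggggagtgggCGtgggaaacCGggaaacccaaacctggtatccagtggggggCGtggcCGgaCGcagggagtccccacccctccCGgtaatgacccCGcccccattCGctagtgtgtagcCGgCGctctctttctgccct
Flt1: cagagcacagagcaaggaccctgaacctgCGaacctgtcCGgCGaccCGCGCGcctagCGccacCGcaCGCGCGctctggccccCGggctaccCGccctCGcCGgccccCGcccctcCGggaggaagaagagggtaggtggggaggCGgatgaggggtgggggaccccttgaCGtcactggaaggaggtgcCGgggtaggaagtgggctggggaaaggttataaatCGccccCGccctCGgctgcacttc
Cldn5: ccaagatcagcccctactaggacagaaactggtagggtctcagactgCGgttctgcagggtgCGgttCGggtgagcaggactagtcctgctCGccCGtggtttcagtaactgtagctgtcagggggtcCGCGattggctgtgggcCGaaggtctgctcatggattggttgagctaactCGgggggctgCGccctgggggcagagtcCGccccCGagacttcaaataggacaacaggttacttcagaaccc
Egfl7 start 3: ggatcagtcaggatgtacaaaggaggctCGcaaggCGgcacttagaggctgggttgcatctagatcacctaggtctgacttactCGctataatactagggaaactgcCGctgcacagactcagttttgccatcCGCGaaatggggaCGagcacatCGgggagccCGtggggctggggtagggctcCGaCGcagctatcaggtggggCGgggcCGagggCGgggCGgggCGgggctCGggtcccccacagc
Egfl7 start 1: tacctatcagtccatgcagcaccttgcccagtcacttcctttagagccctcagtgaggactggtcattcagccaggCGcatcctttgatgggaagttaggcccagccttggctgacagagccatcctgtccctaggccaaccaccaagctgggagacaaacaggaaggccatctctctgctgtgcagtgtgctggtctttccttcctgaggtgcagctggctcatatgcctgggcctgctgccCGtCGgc
Tek: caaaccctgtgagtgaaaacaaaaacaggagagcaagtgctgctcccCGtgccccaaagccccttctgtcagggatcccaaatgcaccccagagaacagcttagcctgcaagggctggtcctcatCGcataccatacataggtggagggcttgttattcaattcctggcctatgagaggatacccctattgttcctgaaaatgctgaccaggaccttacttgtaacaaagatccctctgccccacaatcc

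The open starts had 16 CpGs in these 250 bases at Kdr, 23 at Flt1, 12 at Cldn5 and 17 at start 3 of Egfl7. The starts not open in all lists had fewer, with 3 and 7 at starts 1 and 2 of Egfl7, 2 at Tek and 6 at Tie1. The counts of the 2 kinds did not overlap in these 8 starts, of which 3 are of Egfl7. How often promoters at large would split in this way was not computed, so nothing is read from it. Open here means a peak within 1 kb, which need not cover the printed bases. At Flt1, ATAC peaks covered all 250 bases in control 2 and 0 in control 1, cKO 1 and cKO 2. At start 3 of Egfl7 they covered 250 in control 2, 12 in cKO 1 and 0 in control 1 and cKO 2. At Kdr all 250 were covered in all 4 lists, and at Cldn5 between 114 and 250. Over the 21045 promoters of the table the median was 10.0 CpGs. It was 17.0 CpGs (quartiles 11 and 24) for the 11808 with an ATAC peak within 1 kb in all 4 lists. For the 6555 with one in no list it was 2.00 (quartiles 1 and 4). The open vessel starts lay above the median of all promoters and the others below it. Start 2 of Egfl7 and Tie1, with 7 and 6, were above the upper quartile of the promoters open in no list. Tek does not belong to that class, as it had a peak in cKO 1. Motifs were searched on both strands, with no match of one motif overlapping another. The GC box GGGCGG was in 4 of the 8 member stretches, near the 43.1% of all promoters. These were the 4 open starts, and 2 of the stretches without it belong to Egfl7. Its share among open promoters alone was not computed, so nothing is read from this split. TATAAA was in 1, that of Flt1, against 11.7% of all. CCGGAAG, a form of the site bound by ETS family factors, was in none of the 8 and in 9.08% of all promoters.

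Within 1 kb of the start, the vessel genes fell into 3 groups. Kdr, Flt1, Cldn5, Egfl7 (at its start 3) and Pdgfrb had an ATAC peak within 1 kb in all 4 lists, which is 5 of 9 genes beside 56.9% of all protein-coding genes. Pecam1 had such a peak in control 2 alone and Tek in cKO 1 alone. Cdh5 and Tie1 had no peak of any of the 8 lists there. H3K27ac lay within 1 kb of the start in both genotypes for 4 of 9 (Kdr, Cldn5, Egfl7 and Pdgfrb; 61.0% of all genes), and H3K27me3 for 2 of 9 (Flt1 and Cldn5; 25.1% of all genes). For Cdh5, Pecam1 and Pdgfrb the strand was not given, and a peak at either annotated end was counted. The place of Cdh5 depended on the distance used. Within 2.5 kb of an annotated end, it had an ATAC peak in all 4 lists and H3K27ac in both genotypes. At that distance 6 genes had ATAC in all 4 lists and 5 had H3K27ac in both genotypes. No share over all genes was computed for it. When only ATAC peaks of at least 300 bp were used, open starts in all 4 lists dropped from 5 genes to 2. The median peak width was 210 bp in control 1 and 239 bp in cKO 2, both below that limit. The share over all genes was not computed at this width, so nothing is read from the drop.

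The receptor gene Kdr (chr5:75932827-75979072) was the most heavily acetylated of the 9. Its window held 18146 bp under H3K27ac in control and 14491 bp in cKO, a difference of -20.1%, and ranked at percentiles 97.1 and 95.7 of all genes. Most of this lay in 2 blocks. The one over the start measured 5507 bp in control (chr5:75974435-75979941) and 4241 bp in cKO (chr5:75975315-75979555). The other, inside the gene, measured 5078 bp in control (chr5:75950836-75955913) and 5375 bp in cKO (chr5:75950239-75955613), so the block at the start was narrower in cKO and the internal one was not. Smaller peaks elsewhere in the window also differed, and most of the difference over the window lay in them. The internal block held an ATAC region of 1220 bp called in all 4 lists (chr5:75951937-75953156), 25909 bp downstream of the start. ATAC peaks covered 1274 and 4742 bp of the Kdr window in control 1 and 2, and 4720 and 2115 bp in cKO 1 and 2, and both cKO values fell between the control ones. H3K27me3 was sparse, with 819 bp in control and 481 bp in cKO, all in peaks of under 400 bp near the start.

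Flt1 (chr5:147561604-147726438), the gene of the VEGF-binding receptor that lies on the same chromosome as Kdr, had the opposite balance of marks. A single H3K27me3 peak spanned its start, 14744 bp in control (chr5:147717598-147732341) and 15348 bp in cKO (chr5:147717354-147732701), each wider than 99.5% of the peaks in its list. Over the whole window H3K27me3 covered 17552 bp in control and 18572 bp in cKO, against 4008 and 4055 bp of H3K27ac. Within 1 kb of the same start lay an ATAC peak in all 4 lists, joined to a region of 1479 bp (chr5:147725082-147726560). Only the control 2 peak spanned the start itself, and those of control 1, cKO 1 and cKO 2 lay downstream of it. H3K27ac within 1 kb of the start was limited to 1 peak of 125 bp in cKO. The ATAC cells were sorted and the histone marks came from whole tissue at an earlier age, so these marks need not lie on the same molecules or in the same cells. ATAC coverage was 582 and 6816 bp in control 1 and 2, and 3873 and 1127 bp in cKO 1 and 2. Of 16 ATAC regions in the window, only the one at the start was in all 4 lists and 7 were in 1 list alone.

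**Figure D1:**
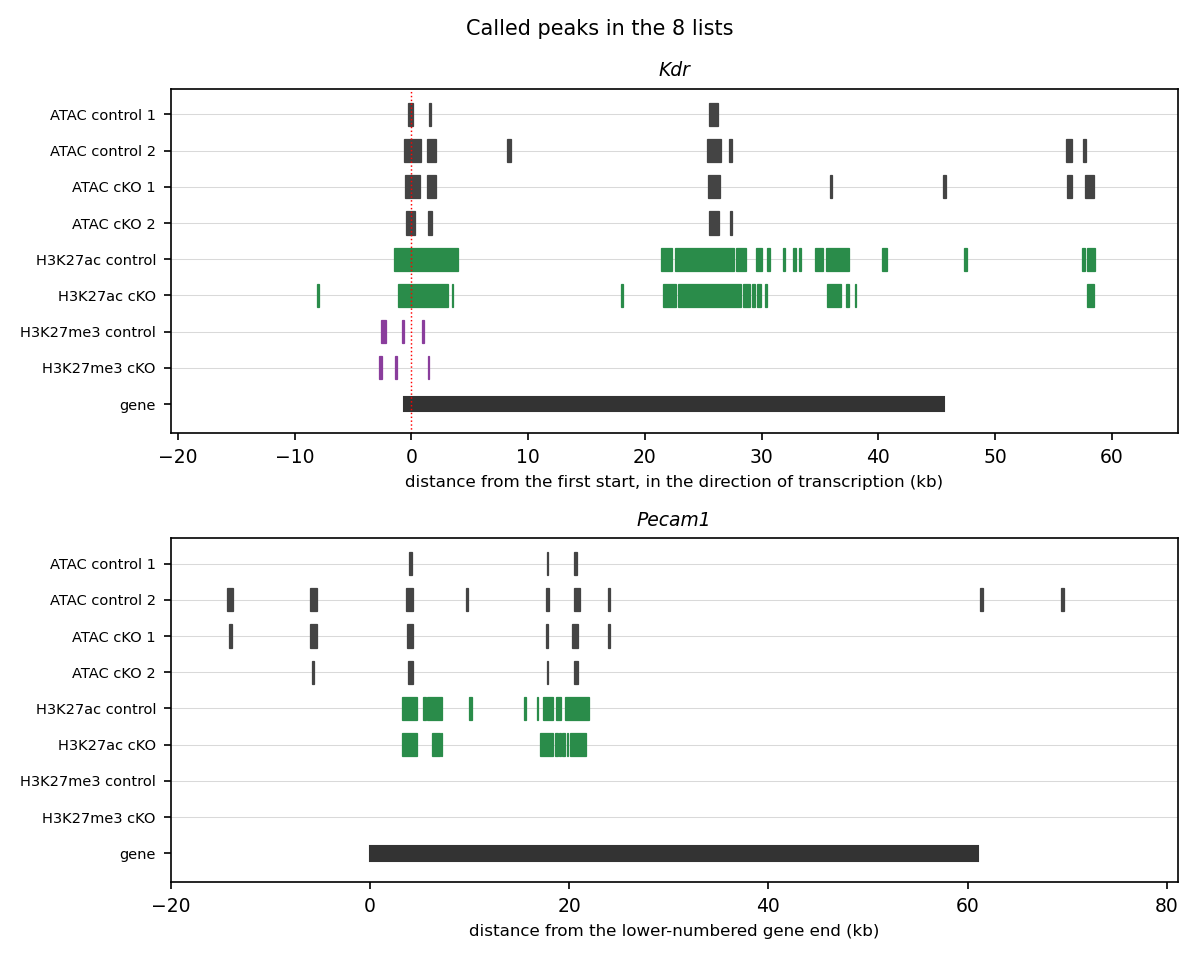
Peaks of the 8 lists along the windows of Kdr and Pecam1, with 1 row per list and the gene body below; the axis gives the distance in kb from the start of Kdr (dotted line) in the direction of transcription, and from the lower-numbered end of Pecam1, whose strand was not given. Kdr shows 2 wide H3K27ac blocks in both genotypes, at its start and inside the gene, and Pecam1 shows H3K27ac inside the gene with no H3K27me3 in the window.

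**Figure D2:**
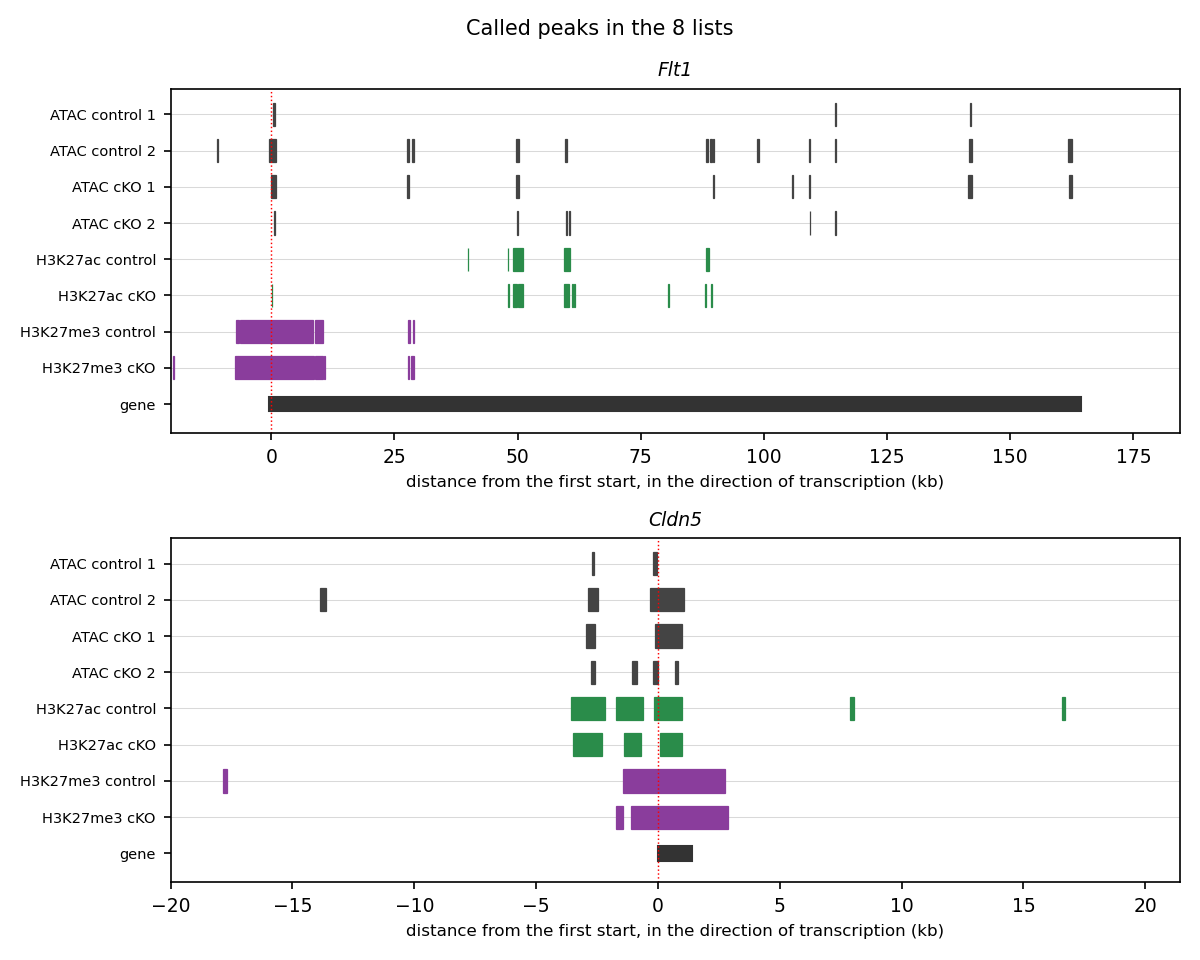
Peaks of the 8 lists along the windows of Flt1 and Cldn5, against the distance in kb from the start in the direction of transcription. The start of Flt1 lies in an H3K27me3 peak of 14.7 kb in control and 15.3 kb in cKO, and the whole of the short Cldn5 gene lies under H3K27me3 with H3K27ac over part of it.

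The angiopoietin receptor genes had the fewest H3K27ac bases of the 9. Tek (chr4:94739086-94874976) had 308 and 590 bp of ATAC coverage in control 1 and 2, and 1183 and 388 bp in cKO 1 and 2, with the genotypes overlapping. Its one ATAC region in all 4 lists lay inside the gene, 13427 bp downstream of the start (chr4:94752387-94753046). A single H3K27ac peak of 171 bp met that region in control, H3K27ac was listed at 0 in cKO, and no H3K27me3 peak lay in the window of either. Tie1 (chr4:118471191-118489849) was listed at 0 for ATAC in control 1 and cKO 2, with 207 bp in control 2 and 389 bp in cKO 1, and at 0 for H3K27ac in both genotypes. The H3K27me3 in its window, 1331 bp in control and 1839 bp in cKO, lay in the flank and wholly within a neighbouring gene. No histone peak lay over Tie1 itself.

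Of the junction and surface genes, Cldn5 (chr16:18776847-18778262) had peaks of both marks over some of the same bases. The marks were read in separate libraries of whole tissue, so they need not lie on the same molecules or in the same cells. Its 1416 bp lay wholly under H3K27me3, in a peak of 4214 bp in control and 3967 bp in cKO, and H3K27ac covered 3961 bp of the window in control and 2821 bp in cKO, a difference of -28.8%; within the gene body alone it was -48 bp. Bases under both marks numbered 1974 in control and 1345 in cKO. ATAC peaks lay within 1 kb of the start in all 4 lists. ATAC coverage of the window was 262 and 2069 bp in control and 1469 and 752 bp in cKO. Cdh5 (chr8:104101613-104144504) had none of its open chromatin in the gene: all 3 ATAC regions of its window were in the flanks, and all 3 were in every list, with 421 and 2249 bp covered in control and 2363 and 680 bp in cKO. One of these, chr8:104098885-104100083, was partly covered by H3K27ac in both genotypes. H3K27ac over the window came to 1814 bp in control and 997 bp in cKO, a difference of -45.0%, although within the gene body alone the cKO had 191 bp more. The difference over the window was -817 bp, against -400 bp with 5 kb flanks and -2369 bp with 50 kb flanks.

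Pecam1 (chr11:106654213-106715281) had no H3K27me3 peak in its window and no histone peak within 1 kb of either annotated end. Its ATAC coverage was 719 and 3846 bp in control 1 and 2, and 2562 and 1258 bp in cKO 1 and 2. Inside the gene, 3 ATAC regions were in all 4 lists, at chr11:106657860-106658514, chr11:106671845-106672227 and chr11:106674509-106675284, and each lay under H3K27ac in both genotypes. H3K27ac covered 7731 bp in control and 6298 bp in cKO, a difference of -18.5%.

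Egfl7 (chr2:26581083-26592682), the gene of the secreted matrix protein, ranked highest for open chromatin, between percentiles 93.9 and 96.9 in the 4 ATAC lists. Its values were 1959 and 5395 bp in control 1 and 2, and 4916 and 3188 bp in cKO 1 and 2, with both cKO values between the control ones. Of 8 ATAC regions in the window, 7 were in all 4 lists, but 2 of those lay in the neighbouring gene Agpat2 and only 1 inside Egfl7, at start 3. H3K27ac covered 8261 bp in control and 6840 bp in cKO, a difference of -17.2%; of these, 1222 and 659 bp lay in Agpat2. The difference was -1421 bp over the window, -858 bp outside other genes and -919 bp after division by list totals, and within the gene body alone the cKO had 20 bp more. The widest acetylated peak of the window lay upstream and measured 3574 bp in control (chr2:26572822-26576395) and 3998 bp in cKO (chr2:26571884-26575881). H3K27me3 covered 5897 and 6068 bp, of which 2149 and 1739 bp were in Agpat2.

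**Figure D3:**
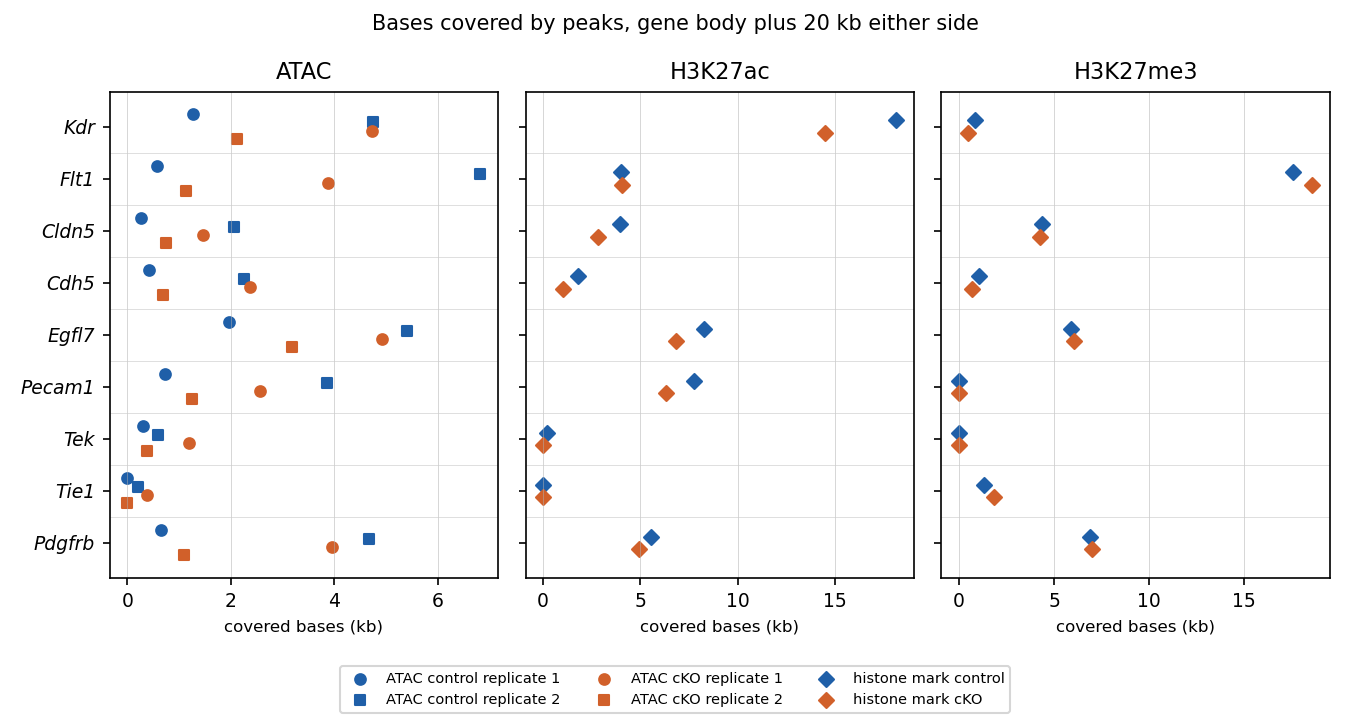
Bases covered by peaks (kb) in the body plus 20 kb of each of the 9 genes, for ATAC, H3K27ac and H3K27me3, with 1 point per library, blue for control and orange for cKO. In the ATAC panel the genotypes overlap for every gene. The H3K27ac points of cKO lie left of control for 7 genes.

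The pericyte gene Pdgfrb (chr18:61045127-61085067) had 652 and 4658 bp of ATAC coverage in control 1 and 2, and 3946 and 1092 bp in cKO 1 and 2. H3K27ac came to 5522 bp in control and 4920 bp in cKO, a difference of -10.9%, with 257 bp of the control value in Cdx1. The difference was -602 bp over the window, -345 bp outside other genes and -241 bp after division by list totals. The H3K27me3 of its window, 6913 bp in control and 6997 bp in cKO, lay almost wholly over the neighbours Cdx1 and Gm52351; outside other genes it was 210 bp in control and listed at 0 in cKO. An ATAC region inside the gene (chr18:61054352-61054692) was called in both control lists and in neither cKO list, and it lay under H3K27ac in both genotypes. Its peaks measured 113 bp in control 1 and 341 bp in control 2.

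Across the 9 windows, 68 ATAC regions were found after overlapping peaks were joined (1 bp minimum), 42 of them overlapping the gene. All 4 lists held 23, or 33.8%, beside 31.5% of the regions in all gene windows. Of the 23, H3K27ac in both genotypes met 14, beside 70.6% of such regions in all gene windows, and H3K27me3 in both met 3, beside 14.8%. Of the other regions, 22 were in 1 list and 13 were in control 2 and cKO 1 alone, the 2 longest lists. Only the Pdgfrb region was in both control lists and neither cKO list, and none was in both cKO lists and neither control list. For the counts by single lists, pairs of lists and genotype, no share over all gene windows was computed, so nothing is read from them.

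No member had more ATAC coverage in both control lists than in both cKO lists (0 of 9, beside 0.0478% of 18840 genes with any ATAC coverage), nor the reverse (0 of 9, beside 0.138%), and division by list totals left both counts at 0. Coverage followed list length, among the members and among all genes. The list of cKO 1 exceeded that of control 1 for 9 of 9 genes, beside 98.4% of all, and control 2 exceeded cKO 2 for 9 of 9, beside 99.1%. For the pairs nearest in length, cKO 2 exceeded the shorter control 1 for 8 genes with 1 equal (90.7% of all genes), and cKO 1 exceeded the longer control 2 for 3 genes, which were Cdh5, Tek and Tie1 (16.8% of all), and was below it for 6 (82.9% of all). Without control 1, both cKO lists lay below the remaining control list for 6 genes, beside 82.8% of all. Both lay above the remaining control list for 8 genes without control 2, beside 90.5%, and cKO 1 lay above both control lists for 3 without cKO 2, beside 16.8%.

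H3K27ac covered fewer bases in the cKO library for 7 of the 8 members with any, all but Flt1, beside 65.2% of the 17149 genes with this mark. After each value was divided by the total covered by its list, which differed by -6.84% between cKO and control, the count stayed at 7, beside 42.1% of all genes. The median difference of the members was -978 bp or -19.3%, and that of all genes was -131 bp or -4.88%. Summed over the members, H3K27ac came to 49614 bp in control and 40422 bp in cKO. The members were chosen with this contrast known, so nothing is read from these counts. With 1 library per group there is no replicate check, and by the number of peaks in place of covered bases, 4 members had fewer in cKO.

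H3K27me3 differed in both directions. Of the 7 members with this mark, Kdr, Cldn5 and Cdh5 had fewer covered bases in cKO (3 of 7, beside 56.2% of 14316 genes), and Flt1, Egfl7, Tie1 and Pdgfrb had more (4 of 7, beside 43.5%). After division by list totals Cldn5 turned to more, which left 2 with fewer. Outside other genes Pdgfrb turned to fewer and Tie1 was at 0 in both genotypes, since its H3K27me3 lay in a neighbouring gene. This gave 4 members with fewer, and only Flt1 and Egfl7 with more. The median difference was 84.0 bp or 1.22%, against -92.5 bp or -2.60% over all genes. The largest values in percent belonged to windows with little of the mark, -41.3% at Kdr, 38.2% at Tie1 and -35.7% at Cdh5, while Flt1, with the most, differed by 5.81%. With 50 kb on either side, 6 members had fewer bases in cKO, and by the number of peaks 1 did.

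**Figure D4:**
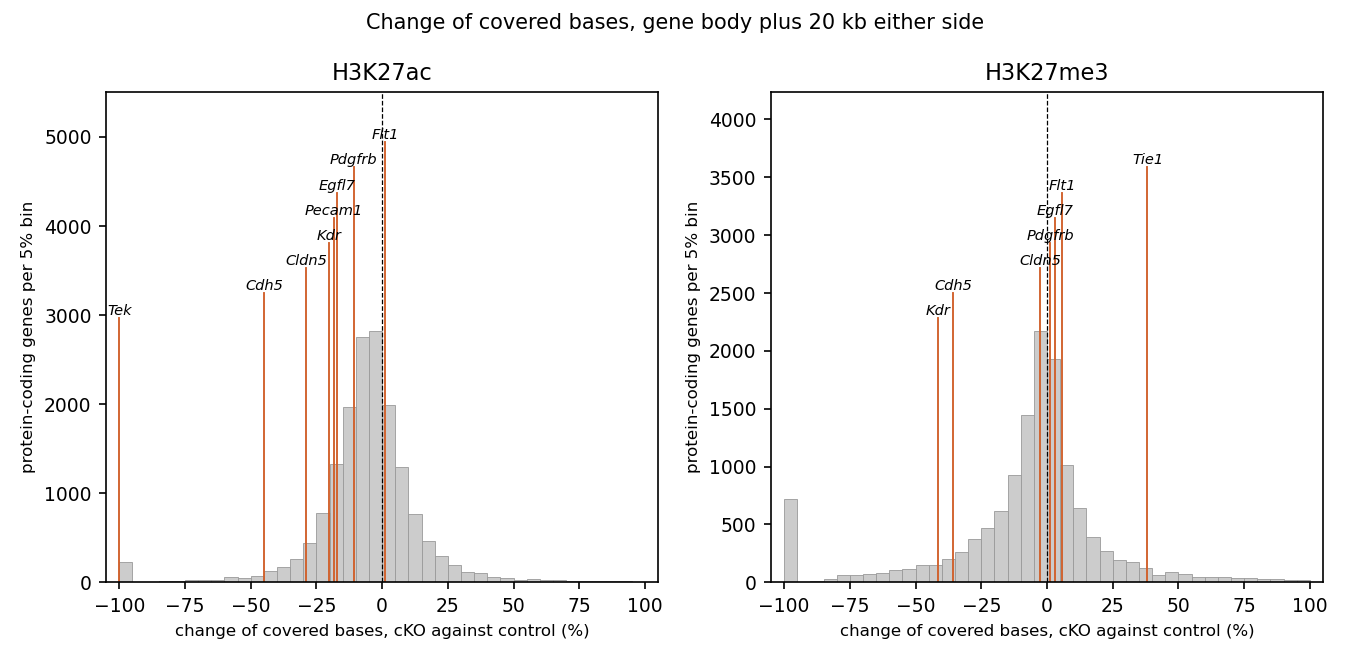
Difference of covered bases, cKO against control, in percent of control, for H3K27ac (left) and H3K27me3 (right). Grey bars count protein-coding genes per bin of 5%, genes at or above 100% are not drawn, the bin at -100 holds genes listed at 0 in cKO, and orange lines mark the vessel genes at heights chosen for legibility. All H3K27ac lines but that of Flt1 lie left of 0, and the H3K27me3 lines lie on both sides.

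The median rank of the members was higher for H3K27ac than for open chromatin, at percentile 76.2 in control and 74.4 in cKO against the ATAC medians given above, all of which were below 50. Kdr, Cldn5, Pecam1 and Pdgfrb ranked higher for H3K27ac in both genotypes than in any ATAC list, whereas the ranks of Flt1, Cdh5, Egfl7, Tek and Tie1 overlapped between the assays. Pecam1 was at percentile 79.0 for H3K27ac in control and between 37.1 and 47.3 for ATAC, and the ATAC ranks of Kdr lay between percentiles 65.4 and 70.9. For the 58 other vessel genes described next the order of the medians was the reverse, with 44.2 and 42.5 for H3K27ac and 45.1 to 66.6 for ATAC. For H3K27me3 the medians of the members were 56.0 and 60.7. The ATAC cells were sorted for uptake of plasmid and the histone tissue was not sorted, and the ages differed, so the assay and the cell mixture cannot be told apart here.

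**Figure D5:**
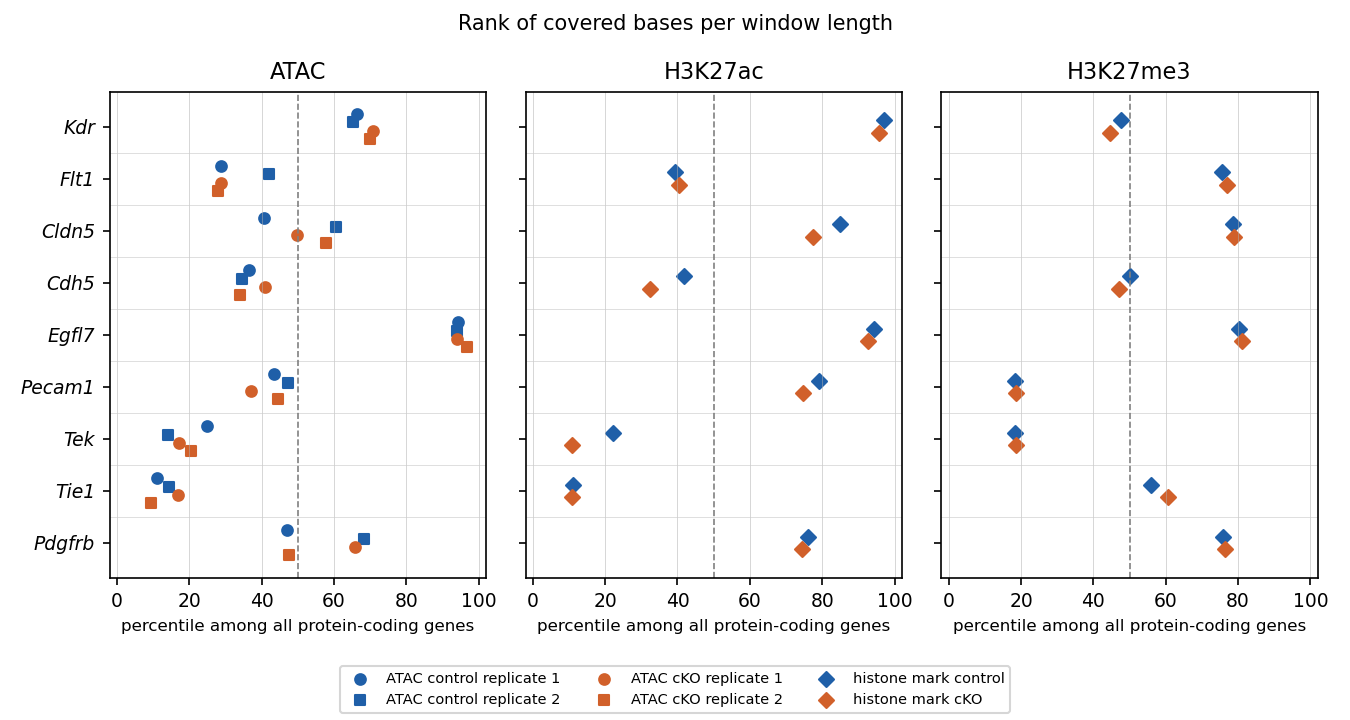
Rank of each of the 9 genes among all protein-coding genes, as a percentile of covered bases per window length, in each library, with the dashed line at percentile 50. For H3K27ac, 5 points per genotype lie right of the line, and Tek and Tie1 lie far left of it for ATAC and H3K27ac.

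Other genes of vessel biology were read in the same way from 7 lists with 58 genes. H3K27ac covered fewer bases in cKO for 34 of the 50 with the mark and more for 16, beside the 65.2% of all genes given above. The median difference was -10.7%. After division by list totals 29 of 50 were lower, beside 42.1% of all genes. Before that division, the counts of single lists were as follows. Among VEGF ligands and co-receptors it was 6 of 7. Pgf, which encodes a VEGF family ligand, had 6485 bp (control) and 4647 bp (cKO), and Nrp1, a VEGF co-receptor gene, 8776 and 7024 bp. In the angiopoietin pathway it was 3 of 4, with Angpt2, which encodes a ligand of the Tek receptor, at 5372 and 3127 bp. Mfsd2a, a lipid transporter gene of the blood-brain barrier, had 4533 and 2908 bp.

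The counts were not alike in all lists, and each stands beside the 65.2% of all genes with fewer H3K27ac bases in cKO. PDGF ligands and the other PDGF receptor had fewer H3K27ac bases in cKO for 1 of 3 genes: Pdgfb, the gene of the ligand that endothelial cells present to pericytes, had 915 and 1871 bp, and Pdgfa 1383 and 2218 bp. Mural cell genes were lower for 3 of 7 and higher for 4. The Norrin pathway, which controls retinal vessel growth through Fzd4, was lower for 3 of 4, with a median of -5.04%. Of other endothelial genes 12 of 17 were lower. Plvap, a gene of endothelial fenestrae, was higher at 3127 and 3522 bp.

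Endothelial transcription factor genes carried H3K27me3 in both genotypes. All 11 had an H3K27me3 peak within 1 kb of the start in both lists, beside 2 of the 9 members and 25.1% of all genes. Of the 11, 1 (Elk3) had H3K27ac there in both, beside 61.0% of all genes. Their median H3K27me3 rank was at percentile 95.2 in control and 95.1 in cKO. H3K27me3 covered fewer bases in cKO for 10 of the 11, beside 56.2% of all genes with the mark. Among them were Sox7 at 21389 and 18439 bp and Ets1 at 44956 and 42899 bp. After division by list totals it was 5 of 11, beside 6534 of 14316 genes. H3K27ac was lower for 6 of the 8 with the mark, beside 65.2% of all genes. Erg, which encodes an ETS factor of endothelium, was higher at 560 and 1025 bp. Over all 58 genes H3K27me3 was lower for 29 of 48 and higher for 19, beside 56.2% and 43.5% of all genes. Ephb4, an ephrin receptor gene of veins, had 7216 and 5319 bp and Nrp1 3436 and 2103 bp. On the other side were Nrp2 at 15014 and 17177 bp, Anpep at 5964 and 7097 bp, the Notch ligand gene Dll4 at 19643 and 20647 bp, and the intermediate filament gene Des at 19562 and 20241 bp.

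Markers of other cells were read beside the 65.2% of all genes with the mark that had fewer H3K27ac bases in cKO. H3K27ac was lower in cKO for 6 of 10 microglia and macrophage genes with the mark (38416 and 33269 bp summed over the list), 4 of 6 astrocyte genes (9758 and 8720 bp), 5 of 6 erythroid genes (8314 and 7439 bp) and 9 of 12 retinal neural genes (192112 and 179379 bp). After division by list totals these counts were 6, 4, 3 and 5, beside 42.1% of all genes. The median differences before it were -10.8%, -22.1%, -7.54% and -5.75%, beside -4.88% over all genes. H3K27me3 covered more bases in cKO for 9 of the 10 retinal neural genes with the mark, beside 43.5% of all genes. The part of cell mixture in the values of the vessel genes was not tested.

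Over the 8 libraries, the genes with the percentile ranks nearest to those of Kdr were Anks1 and Csk, at Euclidean distances of 9.80 and 11.5 percentile points. Nearest to Flt1 were Pcdha6 and Pcdha7, at 9.77 and 9.81 points. Nearest to Cldn5 were Prima1 and Gpr12, at 15.3 and 16.5 points.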

How the data were processed

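ATAC-seq and histone ChIP-seq of mouse retina were deposited by the authors as peak lists. These give position and name, and the deposited score column is 0 throughout, so no height, p-value or read count was used. Bowtie2, deepTools, MACS2 and mm10 come from the submitters' processing notes. Not given in the sources used here were versions, thresholds, any Tn5 shift, duplicate removal and whether input entered the calls. Lists were taken as called per library, from the peak names. The 2 input samples were not analysed here.

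Genes were placed with a GRCm38.p6 (mm10) table from RefSeq that has no exons, so exons and introns were not assigned. Covered bases were summed per gene window with Python 3.11.15, numpy 2.4.6 and pandas 2.3.3, after a check on simulated intervals. Ranks are percentiles of covered bases per window length among 21631 genes. The start was that of the promoter table for 17274 genes and either annotated end for the others. The members and lists were chosen with earlier results of these data known, and all comparisons are descriptions. Genes named beyond the members were, per mark and direction, up to 4 of the vessel lists with the largest difference; neighbours with covered bases in a member's window (1 is not reported here); the 2 nearest by rank for the first 3 members; and Elk3, named after its values were seen. Alternatives were other windows and widths, list totals, peak numbers, flanks without other genes, leaving out libraries and pairing them.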

Additional observations from a re-analysis of the deposited data

How the results depend on the processing

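By number of peaks, 4 members had fewer H3K27ac peaks in cKO (7 by bases) and 1 had fewer H3K27me3 peaks (3 by bases). With 50 kb flanks, 6 had fewer H3K27me3 bases. With ATAC peaks of at least 300 bp, 2 starts were open in all 4 lists (5 otherwise). Leaving out 1 ATAC library gave 0 to 6 members with control above cKO and 0 to 8 with cKO above control. The replicate block, in which both same-numbered pairs must differ one way, gave 0 in each direction. Pairs of lists nearest in length, chosen after seeing the data, gave 0 with control above and 2 with cKO above.

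Some members changed direction. For H3K27ac, cKO minus control became -4 bp at Flt1 with 50 kb flanks and -854 bp with peaks of at least 300 bp, and in the gene body alone it became 191 bp at Cdh5 and 20 bp at Egfl7. For H3K27me3 it became 33 bp at Cldn5 with 5 kb flanks and 34.9 bp after scaling to the list total, -108 bp at Egfl7 and -834 bp at Tie1 with 50 kb flanks, and at Pdgfrb -210 bp in the body, -346 bp with 5 kb and -210 bp without other genes. The cause was not tested. Of the alternative values per gene, 32 of 48 for H3K27ac and 16 of 42 for H3K27me3 kept their direction and moved by at most 1.5 times. Depth is unknown, so a base outside a peak is only uncalled, and small peaks limit the weight of Tek and Tie1.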
